A study of Schizosaccharomyces pombe with 27 samples.

Results

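Chromosomal bins of fission yeast (*Schizosaccharomyces pombe*) in which wild-type forks had no net direction were identified in polymerase usage sequencing (Pu-Seq) data. The genome was divided into 300 bp bins, and 6230 bins (15.0% of the 41529 bins with at least 50 counts in every WT library, of 41908 in all) met the rule. For each library, a polymerase track was calculated in each bin as top-strand counts minus bottom-strand counts, divided by their sum. Net fork direction F was the Polε track minus the Polδ and Polα tracks, divided by 3, from the means of 2 WT experiments, and a member had an F between −0.1 and 0.1. Members were thus selected on the polymerase tracks and counts of the 6 WT libraries, and every WT value of F given here is a description. Members made up 15.8% of the counted bins on chromosome I (2909 bins), 15.3% on chromosome II (2300 bins) and 12.6% on chromosome III (1021 bins).

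The 27 samples form 18 libraries, 2 experiments for each of 9 strains. The 3 genotypes were compared, and each was represented by 3 reporter strains, in which the catalytic subunit of Polα carries the mutation L850F (gene pol1), that of Polε M630F (gene cdc20), or that of Polδ L591G (gene cdc6). 2×Polδ cells carry 1 extra cassette of the 4 Polδ subunit genes cdc1, cdc6, cdc27 and cdm1 on chromosome I, 4×Polδ cells carry 3 such cassettes on chromosome I, and WT cells carry none. In the Polδ reporter strains, the cassettes hold the mutated cdc6 as well. All strains lack rnh201, which encodes the catalytic subunit of RNase H2, and were grown untreated and exponentially in rich medium. Each strain is 1 clone, so that a difference seen in only 1 strain of a genotype cannot be told apart from a difference of that clone. The libraries held 34475309 to 43905303 counts in experiment 1 and 16062711 to 24590546 in experiment 2, with a median of 788 to 960 and 373 to 540 counts per member bin. The study made its library sets by different protocols, and which deposited experiment followed which protocol is not given in the sources used here.

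Replicative polymerases occasionally place a ribonucleotide in DNA, and the mutated alleles do so more often. Without RNase H2 these ribonucleotides stay in the genome and mark the strand that the polymerase made. Polε makes most of the leading strand, whereas Polα primes and Polδ extends the Okazaki fragments of the lagging strand. A region copied mainly by rightward forks has Polε marks on one strand and Polδ and Polα marks on the other, which gives a positive F, and leftward forks give a negative F. F passes zero where forks leave an origin in both directions, where opposing forks meet, and wherever as many cells copy a site rightward as leftward. Origins of fission yeast are intergenic AT-rich stretches, many with asymmetric runs of adenine or thymine, and they fire in only a fraction of cell cycles.

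Member bins from the 3 steepest origin crossings and from 2 of the 3 fork-meeting zones with the most members are shown as sequence settings of abrupt crossings and of zones with many members. Capitals mark runs of at least 5 A or at least 5 T. All 5 are 300 bases of the top strand from RefSeq assembly ASM294v3. The labels coding sequence and intron give what lies at the middle of the bin, and other parts of the bin can differ.
Origin crossing between rpl3402 and phb2, chrIII:1323001-1323300: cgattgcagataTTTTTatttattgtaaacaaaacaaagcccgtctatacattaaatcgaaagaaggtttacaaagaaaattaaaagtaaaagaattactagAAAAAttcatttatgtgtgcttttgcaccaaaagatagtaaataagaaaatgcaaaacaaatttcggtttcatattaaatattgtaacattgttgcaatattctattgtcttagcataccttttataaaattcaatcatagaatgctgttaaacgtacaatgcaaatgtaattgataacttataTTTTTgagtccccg
Origin crossing, coding sequence of wss1, chrI:843901-844200: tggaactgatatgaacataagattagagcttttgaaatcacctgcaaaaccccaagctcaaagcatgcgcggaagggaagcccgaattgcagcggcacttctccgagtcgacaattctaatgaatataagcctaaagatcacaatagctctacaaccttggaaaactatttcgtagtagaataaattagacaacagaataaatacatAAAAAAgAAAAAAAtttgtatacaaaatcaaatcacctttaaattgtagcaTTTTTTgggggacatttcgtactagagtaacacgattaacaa
Origin crossing between cek1 and SPOM_SPCC1450.12, chrIII:1753501-1753800: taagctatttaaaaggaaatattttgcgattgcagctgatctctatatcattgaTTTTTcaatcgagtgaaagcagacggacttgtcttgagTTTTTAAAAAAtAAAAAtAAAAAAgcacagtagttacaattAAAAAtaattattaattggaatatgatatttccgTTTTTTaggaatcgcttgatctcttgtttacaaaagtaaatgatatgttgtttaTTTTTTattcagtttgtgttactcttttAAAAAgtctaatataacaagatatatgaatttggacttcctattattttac
Fork-meeting zone, intron of SPOM_SPAC23C4.09C, chrI:1043401-1043700: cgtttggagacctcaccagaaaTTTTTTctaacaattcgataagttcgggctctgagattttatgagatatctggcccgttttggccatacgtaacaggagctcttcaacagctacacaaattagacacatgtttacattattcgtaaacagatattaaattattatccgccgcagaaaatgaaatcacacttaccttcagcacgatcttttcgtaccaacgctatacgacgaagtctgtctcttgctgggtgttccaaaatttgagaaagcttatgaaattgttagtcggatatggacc
Fork-meeting zone, coding sequence of pbr1, chrI:2476501-2476800: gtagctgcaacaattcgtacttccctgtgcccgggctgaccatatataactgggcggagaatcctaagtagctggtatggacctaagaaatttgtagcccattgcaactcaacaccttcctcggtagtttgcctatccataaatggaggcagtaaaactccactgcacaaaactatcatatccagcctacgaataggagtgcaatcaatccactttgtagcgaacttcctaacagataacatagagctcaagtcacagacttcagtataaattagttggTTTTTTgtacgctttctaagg
The origin bins next to rpl3402 and cek1 were intergenic and 74% and 75% A or T. They held 3 and 9 such runs covering 15 and 49 bases. The bin on wss1 was coding at its middle and 64.7% A or T, with 3 runs covering 19 bases. Whether those 3 runs lie in coding sequence is not given by this label. The fork-meeting bins were 60.7% and 57% A or T with 1 run of 6 bases each. Of all counted bins, 85.8% held AAAAA or TTTTT, searched on both strands, so that the presence of a run alone does not set a bin apart. The origin bin next to rpl3402, which encodes a ribosomal protein, had an F of −0.05 in 2×Polδ, −0.03 in 4×Polδ and −0.0029 in WT cells. The fork-meeting bin on SPOM_SPAC23C4.09C had an F of 0.05 in 2×Polδ, 0.02 in 4×Polδ and 0.001 in WT cells. All 6 values lay within the limit, as did those of the cek1 bin (0.07 in 2×Polδ, −0.07 in 4×Polδ and −0.07 in WT cells). The wss1 bin had 0.14 in 2×Polδ, 0.15 in 4×Polδ and 0.0073 in WT cells and was thus outside the limit in both strains with extra cassettes.

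Members lay in short runs. Of 2150 unbroken runs, 48.0% were a single bin and the longest was 19 bins (5.7 kb), while 54.3% of members were in runs of at least 5 bins. Members no more than 3 bins apart were joined into 951 zones, and each zone was classed by the mean F of the 10 counted bins on either side. A zone with leftward forks on its left and rightward forks on its right (at least 0.1 in absolute F) is an origin crossing, and the opposite arrangement is a fork-meeting zone. A zone with the same direction on both sides is one-way, any other is flat, and zones within 30 kb of a chromosome end are end zones. Fork-meeting zones held the most members (312 zones, 2889 members, 46.4%), followed by one-way zones (336 zones, 2117 members, 34.0%), flat zones (134 zones, 713 members, 11.4%), origin crossings (143 zones, 373 members, 5.99%) and end zones (26 zones, 138 members, 2.22%). The share in fork-meeting zones depended on how members were joined, and ranged between 25.4% with no gap joined and 58.4% with gaps of 10 bins joined.

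**Figure D1:**
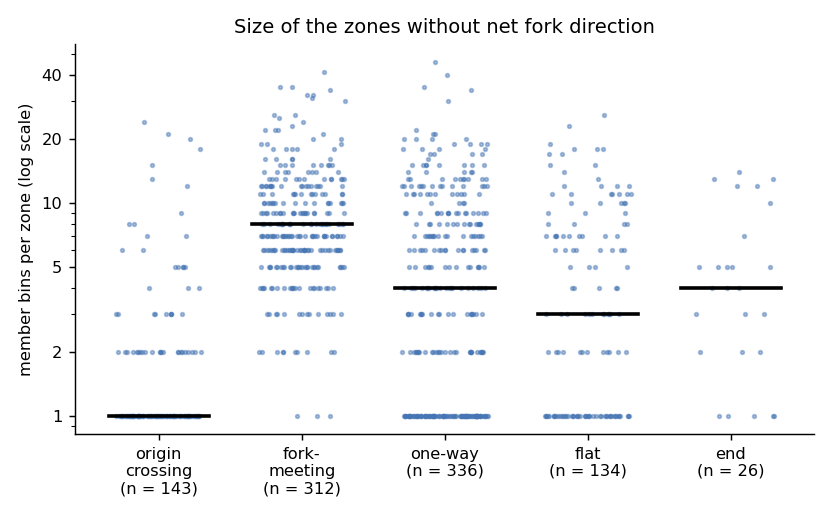
Number of member bins in each zone (log scale) for the 5 classes of zone in WT cells, with n the number of zones. Points are zones and bars are medians. Most origin crossings hold a single bin, whereas fork-meeting zones have a median of 8.

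Origin crossings were narrow and steep. Of the 143 crossings, 62.2% were 1 bin wide, and F changed between their flanks by a median of 0.829 ± 0.082 in 2×Polδ, 0.793 ± 0.033 in 4×Polδ and 0.751 ± 0.092 in WT cells (mean ± SD of the medians of n = 2 experiments). In experiments 1 and 2 the medians were 0.887 and 0.771 in 2×Polδ, 0.816 and 0.770 in 4×Polδ, and 0.816 and 0.686 in WT cells, so that 2×Polδ was above WT within both experiments and 4×Polδ was above WT in experiment 2 and level with it in experiment 1. These differences were not tested, since the zones were chosen on WT values. A further 75 places showed a step of this kind between adjacent bins with no bin in between that met the limit, so that the members do not list every origin. The steepest crossing, chrIII:1323001-1323300 above, stepped by 1.60 in 2×Polδ, 1.58 in 4×Polδ and 1.5 in WT cells. It was followed by the crossing at chrI:843301-844200 on wss1 (1.49, 1.48 and 1.43 in 2×Polδ, 4×Polδ and WT) and by the bin next to cek1, a protein kinase gene (1.47, 1.43 and 1.4). The broadest crossing ran over 9.3 kb at chrI:1138501-1147800, across 6 protein-coding genes including met9 and rrp8, with 24 members and a step of 0.59 in 2×Polδ, 0.56 in 4×Polδ and 0.52 in WT cells. Those at chrI:2667601-2676300 (8.7 kb, 21 members) and chrII:2613001-2619600 (6.6 kb, 20 members) were likewise shallow, with steps of 0.58 and 0.63 in 2×Polδ, 0.60 and 0.64 in 4×Polδ, and 0.59 and 0.62 in WT cells.

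Fork-meeting zones were broader and shallower. Their median length was 3 kb (quartiles 2.1 and 4.5 kb, longest 15.6 kb), only 3 of 312 were a single bin, and F changed across them by a median of −0.520 ± 0.015 in 2×Polδ, −0.488 ± 0.0046 in 4×Polδ and −0.462 ± 0.039 in WT cells (SD, n = 2 experiments). Both experiments of 2×Polδ (−0.531 and −0.509) lay beyond those of 4×Polδ (−0.485 and −0.491) and WT (−0.490 and −0.435), a difference that was not tested because the zones were chosen on WT values. The zone with the most members lay at chrI:1040701-1055700 around rho3 and sec2 (41 members in 15 kb), with a step of −0.49 in 2×Polδ, −0.39 in 4×Polδ and −0.40 in WT cells. Next were chrI:2467501-2481300 around imp4 and pbr1 and chrII:4311301-4324500 around pek1 and yta12, with 35 members each. The steepest was chrII:1623301-1624800 in the gene-free stretch between rpb1 and yox1, with steps of −0.99 in 2×Polδ, −0.97 in 4×Polδ and −0.98 in WT cells. Steep meeting zones also lay on msh6, a mismatch repair gene (chrIII:1830001-1831800, −0.96, −0.87 and −0.80 in 2×Polδ, 4×Polδ and WT), and at chrIII:1600501-1601400 (−0.94, −0.82 and −0.77). Steps of this sign between adjacent bins without a member were found at 10 places.

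**Figure D2:**
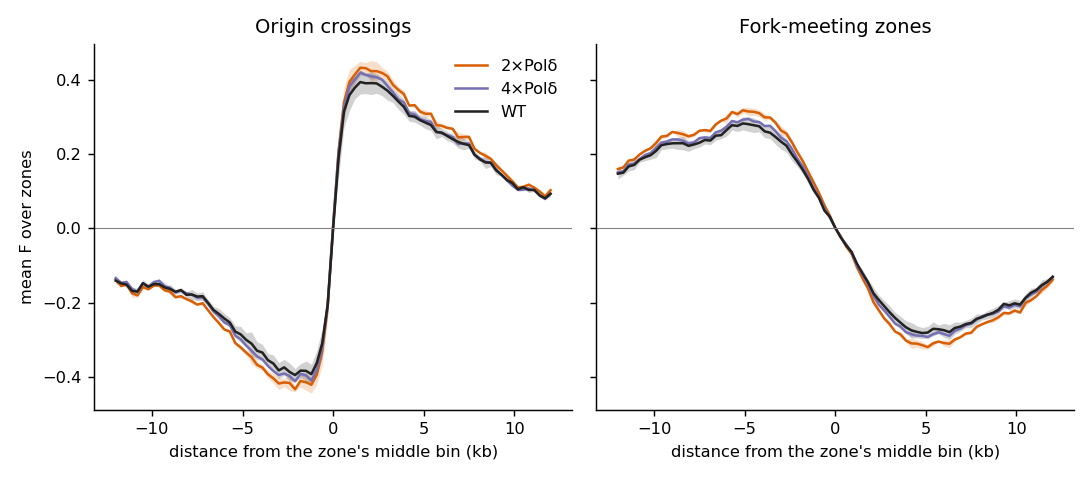
Mean F (y axis, no unit) by distance in kb from the middle bin of WT origin crossings (left) and fork-meeting zones (right). Lines are 2×Polδ, 4×Polδ and WT cells, with bands spanning the 2 experiments. F rises steeply through 0 at origin crossings and falls gradually through 0 at fork-meeting zones in all 3 genotypes.

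One-way zones lay between 10-bin flanks of the same direction, 176 with rightward flanks (1158 members) and 160 with leftward flanks (959 members). The longest was chrI:5346001-5363700 with 46 members in 17.7 kb, across pop2 and sum1, with a flanking F of −0.15 on the left and −0.18 on the right in WT cells. The zones at chrII:915001-930000, across the kinase gene tor2 (40 members), and chrI:1853701-1866000 (35 members) had unequal flanks, −0.51 and −0.21 in the first and 0.15 and 0.45 in the second. Flat zones were shorter. The zone at chrII:1351801-1359900, across tom40 and gsk31, held 26 members in 8.1 kb and a flanking F of −0.07 and −0.17 in WT cells, and those at chrI:5529601-5539800 and chrIII:2148301-2155800 held 23 and 19. End zones were uneven among chromosome arms: the left and right ends held 21 and 28 members within 30 kb on chromosome I, 34 and 18 on chromosome II, and 9 and 10 on chromosome III. The largest, with 14, 13 and 13 members, were chrI:25801-31800, chrI:5565001-5571300 and chrII:15001-20400.

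Among genes altered in these strains, members overlapped pol1 and rnh201. At pol1 (chrI:3430955-3436241), 12 of 19 bins were members of a flat zone, with a median F of 0.03 and −0.03 in the experiments of 2×Polδ, 0.01 and −0.03 in 4×Polδ, and 0.03 and −0.0005 in WT cells. At rnh201, 1 of 6 bins was a member, and its F was −0.27 and 0.46 in the experiments of 2×Polδ, −0.28 and 0.35 in 4×Polδ, and −0.25 and 0.35 in WT cells. This gene is deleted in all strains, its bin held only 0.163 to 0.818 times the library's median count, and it met the limit only because the experiments had opposite signs. None of the bins of cdc1, cdc6, cdc27, cdm1, cdc20, ura4, ade6, leu1 or act1, or of the integration sites, was a member.

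A near-zero F did not mean that all tracks were near zero. In only 626 members (10%) were all 3 WT tracks within 0.1 of zero, and in 4146 (66.5%) all 3 had the same sign, which was the case in 11.1% of the other bins. In strains that did not choose the members, the 3 tracks shared a sign in 57.5% of members and 8.71% of other bins in 2×Polδ, and in 61.6% of members and 9.14% of other bins in 4×Polδ. An F near zero requires a Polε track close to the sum of the Polδ and Polα tracks. A shared sign and a larger Polε track at members thus follow in part from the rule. This also holds in 2×Polδ and 4×Polδ, where most members kept an F near zero. The median absolute track at members was largest for Polε (0.182 in 2×Polδ, 0.183 in 4×Polδ and 0.2 in WT) and lower for Polδ (0.140, 0.139 and 0.111) and Polα (0.119, 0.112 and 0.114). Base composition of the strands moved with these shared tracks. In the 642 members with the lowest sum of A minus T and C minus G on the top strand (median −14.7 percentage points), the median Polα, Polε and Polδ tracks were −0.18, −0.21 and −0.11 in 2×Polδ, −0.13, −0.22 and −0.14 in 4×Polδ, and −0.12, −0.21 and −0.12 in WT cells. In the 644 with the highest sum (14.7 points), all 9 were positive, between 0.10 and 0.20, while the median F stayed within 0.024 of zero in both sets of members and all genotypes. In WT cells a median F near zero was set by the rule. Bins of a library are not independent, and the part of composition in the tracks was not tested.

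The classes differed in what lies beneath them in the annotation. The middle of the bin was intergenic in 54.2% of origin-crossing members, 61.9% of these between divergent genes, compared with 22.4% and 44.0% for all counted bins. Fork-meeting members were intergenic in 18.2% and coding in 62.5%, close to the 57.6% coding share of all counted bins. End members were intergenic in 71.7%. Median AT content was 68% in origin crossings, 63.3% in fork-meeting zones, 64.7% in one-way zones, 64.3% in flat zones, 66.8% in end zones and 63.7% in all counted bins. A run of AAAAA or TTTTT occurred in 92.2% of origin-crossing members and 84.9% of fork-meeting members. Sequence that occurs more than once in the reference was unevenly spread. In 408 members (6.55%) at least 50% of the 50-base words were found again elsewhere, compared with 3.65% of other bins. This share was 79.0% in end members, 10.4% in flat, 6.66% in one-way, 3.49% in origin-crossing and 2.46% in fork-meeting members. How reads that match several places were assigned is not given in the sources used here.

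Most members also had an F near zero in the strains with extra Polδ cassettes. F was within 0.1 in 4422 members (71.0%) in 2×Polδ and in 4828 (77.5%) in 4×Polδ, compared with 3.47% and 3.64% of the other bins. Both genotypes were within the limit in 3954 members (63.5%) and neither in 934 (15.0%). In single experiments the share was 65.5% and 61.0% for 2×Polδ, and it was 70.8% and 68.7% for 4×Polδ. The same count in single WT experiments, which chose the members, was 78.4% and 82.2%. In all 6 single experiments, 1659 members (26.6%) lay within the limit, most often in fork-meeting zones (30% of members) and least often in end zones (13.8%). An F beyond 0.3 on either side was found in 6 members in 2×Polδ and 17 in 4×Polδ. At the edge of the rule, the closest members inside the limit had a WT F of 0.09998 (chrI:4815301-4815600) and −0.09998 (chrI:4459501-4459800), and the closest bins outside had 0.10005 (chrII:2198401-2198700) and −0.10008 (chrII:4505701-4506000). Zone classes were also carried over: 135 of 143 origin crossings (94.4%) and 303 of 312 fork-meeting zones (97.1%) kept their class in 2×Polδ, and 138 (96.5%) and 304 (97.4%) kept it in 4×Polδ.

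**Figure D3:**
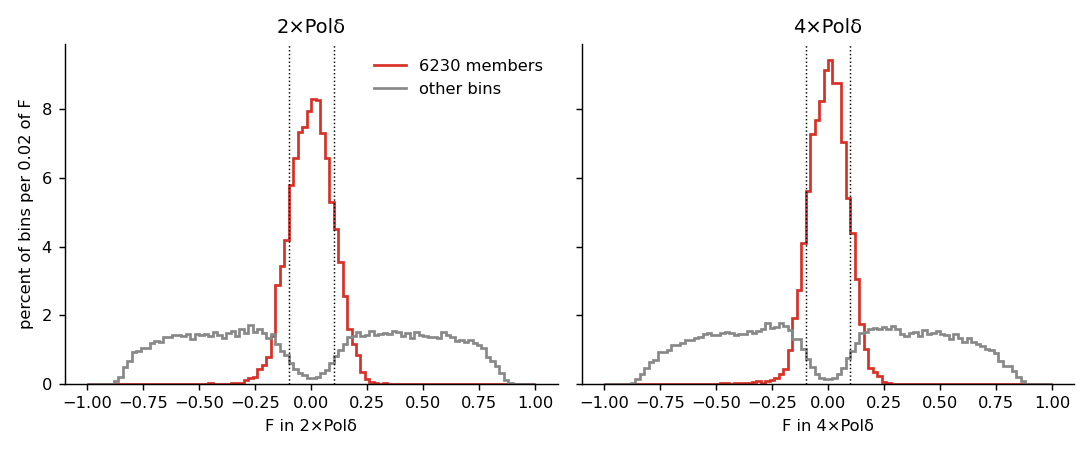
Distribution of F in 2×Polδ (left) and 4×Polδ cells (right) for the 6230 member bins and for the other counted bins, in percent of bins per 0.02 of F, with dotted lines at −0.1 and 0.1. Members form a single peak around 0, with 71.0% (2×Polδ) and 77.5% (4×Polδ) between the lines.

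To ask whether the strand shares of members differed between genotypes, edgeR's quasi-likelihood test was run on the strand counts of all bins, with p-values adjusted over all 41859 bins tested. Its log2 ratio compares the odds of the strands between genotypes, averaged over the 3 polymerases so that a positive value means a shift towards rightward forks. Between 4×Polδ and 2×Polδ, a contrast that did not choose the members, 7 of 6230 members passed an adjusted p of 0.05 (0.112%, compared with 0.0836% of all bins tested). Against WT, whose values chose the members and are shared by both comparisons, 1 member passed in 2×Polδ (background 0.0549%) and 8 passed in 4×Polδ (background 0.136%). At an unadjusted p of 0.05, 113, 193 and 128 members passed in these contrasts (1.81%, 3.10% and 2.05%), beside 2.13%, 5.23% and 2.10% of all bins. With experiment as a block, 20, 41 and 51 members passed (0.321%, 0.658% and 0.819%), beside 0.528%, 0.905% and 1.09% of all bins. Leaving out any 1 of 9 of the 12 libraries compared gave 3 or 4 calls in place of 7 between 4×Polδ and 2×Polδ, and leaving out WT Polε replicate 1 gave 18 calls in place of 1 between 2×Polδ and WT (0.289% of members, beside 0.884% of all bins). Both experiments of each strain share a clone, so p-values measure the spread between libraries of that clone only.

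In 3 kb windows, 618 of the 4189 tested held at least 5 members. Of these, 4 passed between 4×Polδ and 2×Polδ (1.27% of all windows passed), 8 between 2×Polδ and WT (1.98%) and 15 between 4×Polδ and WT (1.93%). Percentages in brackets in this paragraph are shares of all windows tested. Of the 618 windows, 0.647%, 1.29% and 2.43% passed. With experiment as a block the numbers were 95 (9.62%), 121 (17.7%) and 43 (4.30%), or 15.4%, 19.6% and 6.96% of the 618 windows. Without WT Polε replicate 1 they were 32 (5.23%), 106 (35.2%) and 25 (7.47%), with the remaining WT Polε library assumed to vary like the others. Leaving out WT Polε replicate 2 gave 30 for 4×Polδ against 2×Polδ, and leaving out any other library gave 1 or 2. The counts of called windows therefore depended on the design, as did the calls of some of the named windows below. For most of these, the number of the 18 leave-one-out fits in which they passed is given.

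All 7 members that passed between 4×Polδ and 2×Polδ lay in 1 one-way zone, chrI:3355501-3361200, which holds 13 members. The zone covers cnt6, SPOM_SPAC26A3.11 and dhp1, which encodes a nuclear exoribonuclease, and its middle is 33.2 kb from one of the integration sites that is occupied by a cassette in 4×Polδ only. The median F of its members was −0.33 and −0.35 in the experiments of 4×Polδ, 0.03 and 0.04 in 2×Polδ, and 0.02 and −0.02 in WT cells. The 4×Polδ experiments were therefore far below the 4 others, among which both of 2×Polδ were slightly above both of WT, and 0 of the 13 members were within 0.1 in 4×Polδ compared with 11 in 2×Polδ. The log2 ratio of the called members ran from −1.46 to −1.12 for 4×Polδ against 2×Polδ, and from −1.20 to −1.02 against WT. The window chrI:3357001-3360000 differed by −1.26 ± 0.067 (SE) between 4×Polδ and 2×Polδ (edgeR adjusted p = 3.1e-07) and by −1.10 ± 0.067 between 4×Polδ and WT (edgeR adjusted p = 9.3e-07), and passed in 18 of 18 leave-one-out fits in both. The flanks moved unequally: left of the zone the mean F was −0.12 in 4×Polδ, 0.29 in 2×Polδ and 0.23 in WT cells, and right of it 0.12, 0.15 and 0.11. The right flank in WT was thus near the limit of 0.1 that set the class, and the next protein-coding gene there is Tf2-4. Wider out, F had opposite signs on either side. In the bin 15 kb left of the middle, F was 0.79 and 0.76 in 2×Polδ, 0.48 and 0.51 in 4×Polδ, and 0.77 and 0.66 in WT. At 15 kb right it was −0.53 and −0.67, −0.52 and −0.70, and −0.55 and −0.54. The lower F of 4×Polδ thus reached left beyond the zone.

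**Figure D4:**
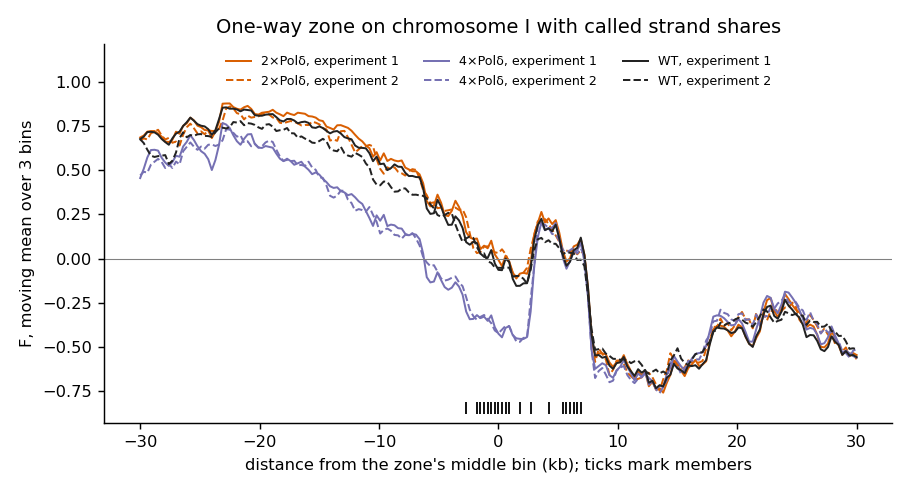
F as a moving mean over 3 bins (y axis) by distance in kb from the middle of the one-way zone on chromosome I, for both experiments of 2×Polδ, 4×Polδ and WT cells. Ticks mark its 13 members and members to its right. Around the middle, the 4×Polδ lines run near −0.35 while the 4 other lines run near 0. Left of the zone the 4×Polδ lines also run below the others, in bins that are not members.

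Members and windows outside this zone were also called. The member called in 2×Polδ, chrI:5202901-5203200 on the tyrosine phosphatase gene pyp2, lies 27.9 kb from the integration site occupied in both strains. Its F was 0.31 and 0.24 in the experiments of 2×Polδ, 0.24 and 0.21 in 4×Polδ, and −0.13 and −0.07 in WT cells, and its log2 ratio for 2×Polδ was 1.13 ± 0.15 (edgeR adjusted p = 0.019, 9 of 18 leave-one-out fits). Every member called in a strand contrast lay within 50 kb of an integration site, where 99 of the 6230 members lie, a distance that was chosen after the values were seen. The window chrI:4761001-4764000, 28.5 kb from the remaining site and across the splicing factor gene saf3, had an F of 0.13 and 0.10 in 4×Polδ, 0.03 and 0.02 in 2×Polδ, and −0.01 and −0.007 in WT cells. It differed by 0.40 ± 0.056 for 4×Polδ against WT (18 of 18 fits) and by 0.27 ± 0.056 for 4×Polδ against 2×Polδ (2 of 18 fits). The windows chrII:2100001-2103000 on ctr6 and nif1 (0.39 ± 0.084) and chrI:4671001-4674000 on jac1, sfc2 and gwt1 (0.31 ± 0.067) were called between 4×Polδ and 2×Polδ but passed in only 2 of 18 fits each.

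For windows away from the sites that were called against WT, values of both strains with extra cassettes are given side by side, since both comparisons share the WT libraries. The window chrII:2124001-2127000 with 7 members lies between the mating-type genes mat1-Mc and mat3-Mi, whose nearer ends are 10.5 and 7.1 kb from its middle. Its F was −0.28 and −0.27 in 2×Polδ, −0.26 in both experiments of 4×Polδ, and −0.003 and 0.05 in WT cells, with log2 ratios of −0.99 ± 0.095 (2×Polδ) and −0.96 ± 0.095 (4×Polδ) against WT (18 of 18 fits each). Near the right end of chromosome I, chrI:5520001-5523000 had an F of −0.26 and −0.23 in 2×Polδ, −0.30 and −0.23 in 4×Polδ, and −0.07 and 0.007 in WT cells. The window chrI:5529001-5532000 had −0.15 and −0.18 in 2×Polδ, −0.17 in both experiments of 4×Polδ, and −0.005 and 0.009 in WT cells. The window chrI:5556001-5559000 shifted the opposite way, with 0.13 and 0.11 in 2×Polδ, 0.12 and 0.10 in 4×Polδ, and −0.007 and −0.001 in WT cells, and its log2 ratio for 2×Polδ was 0.46 ± 0.064. A window between them, chrI:5538001-5541000, was higher in 2×Polδ by 0.37 ± 0.076 and passed in 10 of 18 fits. In 42 members (0.674%), F lay beyond 0.2 on the same side in 2×Polδ and 4×Polδ, a limit set after the values were seen. Of these 21 were in one-way, 10 in fork-meeting, 5 in flat, 4 in end zones and 2 in origin crossings.

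The total count of a bin, top plus bottom strand, was compared with the library's median bin. Members as a whole were close to it: their median total was 0.983 ± 0.012 of the median bin in Polα libraries, 1.01 ± 0.015 in Polε libraries and 0.972 ± 0.0047 in Polδ libraries (SD, n = 6 each), and they took 14.6%, 15.2% and 14.5% of all counts. By genotype the value was 0.985 ± 0.024 in 2×Polδ, 0.993 ± 0.018 in 4×Polδ and 0.989 ± 0.022 in WT (SD, n = 6 each). These means differed by less than the SD, which includes the differences between polymerases. Within Polα libraries, experiments 1 and 2 gave 0.965 and 0.979 in 2×Polδ, 0.997 and 0.995 in 4×Polδ, and 0.983 and 0.982 in WT. The genotypes thus did not overlap in Polα libraries, whereas they overlapped in Polδ and Polε libraries. This difference was not tested. Origin crossings were low in every library. Their median total was 0.851 ± 0.073 in Polα, 0.846 ± 0.065 in Polε and 0.798 ± 0.093 in Polδ libraries. The central bin of the crossings was lower still, with a mean of 0.645 in 2×Polδ, 0.652 in 4×Polδ and 0.604 in WT cells, and had a median AT content of 71.3%. The experiments differed here. Origin-crossing totals were 0.868 to 0.935 in the 9 libraries of experiment 1 and 0.659 to 0.873 in those of experiment 2, and end-zone totals were 1.04 to 1.33 and 0.792 to 1.13. Over the 6230 members, the correlation of log total with AT content lay between −0.228 and 0.073 in experiment 1 libraries and between −0.705 and −0.442 in experiment 2 libraries. AT content and copy number of the sequence move with the class totals, and their part in them was not tested.

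**Figure D5:**
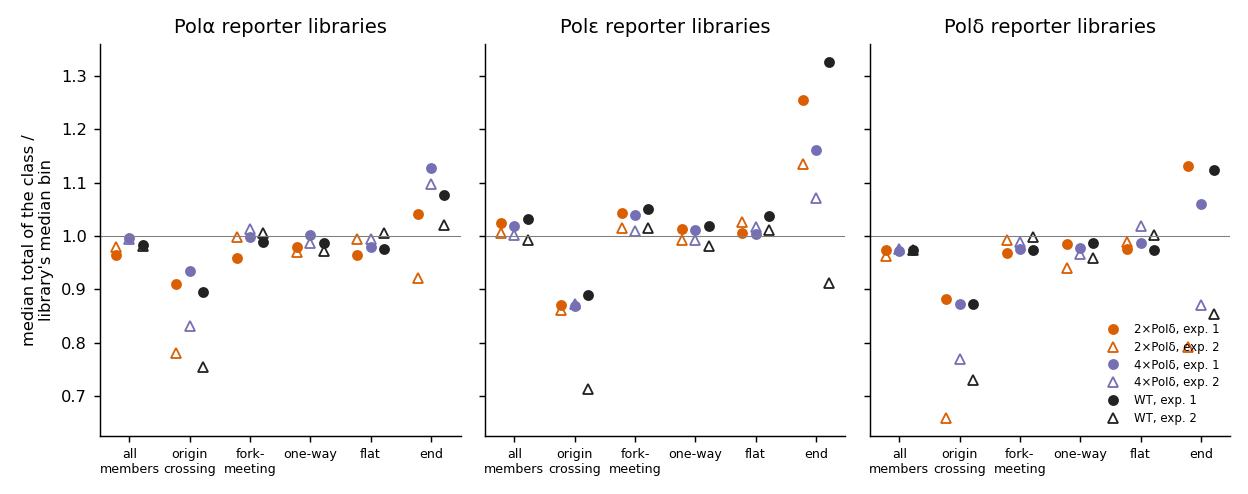
Median total count of all members and of each class relative to the library's median bin (y axis), for Polα, Polε and Polδ reporter libraries of 2×Polδ, 4×Polδ and WT cells. Filled circles are experiment 1 and open triangles experiment 2. Origin crossings lie below 1 in all 18 libraries, and lower in experiment 2 in most strains.

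Total counts of members rarely differed between genotypes. In edgeR's quasi-likelihood test over 41859 bins, 0 members were higher and 3 lower in 2×Polδ than in WT (background 0.0836% of bins called), and 1 was higher and 4 lower in 4×Polδ (background 0.151%), with 38 (0.61%) and 91 (1.46%) members at an unadjusted p of 0.05, beside 0.834% and 0.989% of all bins. With experiment as a block, 14 (0.225%) and 67 (1.08%) members passed, beside 0.237% and 0.647% of all bins. Leaving out any 1 of the 12 libraries of 2×Polδ and WT gave 0 or 1 call in place of 3 in 2×Polδ. In 4×Polδ, 3 calls in place of 5 were made without 4×Polδ Polδ replicate 1, 4×Polδ Polα replicate 2 or WT Polα replicate 2. All lower calls, 3 in 2×Polδ and 4 in 4×Polδ, lay in the longest stretch without protein-coding genes on chromosome II, between rpb1 and yox1 (II, 1596745 to 1648231), where centromeric repeats lie. This grouping was made after the values were seen. The bin chrII:1603501-1603800 had the strongest difference, with totals (lowest, median, highest) of 0.787, 1.05 and 1.42 times the median bin in 2×Polδ, 0.801, 0.995 and 1.07 in 4×Polδ, and 1.05, 1.94 and 2.38 in WT. The WT Polε and Polα libraries, all at least 1.68, lay above every library of 2×Polδ and 4×Polδ, whereas the WT Polδ libraries, at 1.15 and 1.05, overlapped with them. Its log2 ratio was −0.72 ± 0.098 in 2×Polδ (edgeR adjusted p = 0.017) and −0.84 ± 0.098 in 4×Polδ (edgeR adjusted p = 0.0021). The bin chrII:1617001-1617300 had 0.913, 1.16 and 1.39 in 2×Polδ, 0.813, 1.02 and 1.20 in 4×Polδ, and 1.15, 1.82 and 1.90 in WT. These and the bin chrII:1631401-1631700 passed in 18 of 18 leave-one-out fits for 4×Polδ, but in 10, 3 and 2 of 18 for 2×Polδ. All 50-base words of the bins at 1617001, 1631101 and 1631401 occur again elsewhere in the reference, and 19.1% of those at 1603501, so that counts of near-identical copies cannot be told apart.

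The comparison of reporter polymerases gave more calls. Totals of Polε libraries were higher than those of Polδ libraries in 363 members (5.83%, background 7.62%) and lower in 281 (4.51%, background 11.4%). Polα libraries were higher than Polδ in 33 members (0.53%, background 0.545%) and lower in 117 (1.88%, background 2.26%), and higher than Polε in 25 (0.401%, background 4.69%) and lower in 97 (1.56%, background 3.79%). The share of members called was thus below that of all bins in each of these 6 counts, and close to it for Polα over Polδ. At an unadjusted p of 0.05, 1360 (21.8%), 1016 (16.3%) and 525 (8.43%) members passed for Polε over Polδ, Polα over Polδ and Polα over Polε, beside 31.7%, 17.3% and 21.3% of all bins. With experiment as a block the calls in either direction rose to 2390 (38.4%, background 51.4%), 1128 (18.1%, background 21.0%) and 1129 (18.1%, background 38.8%). End zones stood out among the classes for Polε over Polδ, with 13% of members higher and a median log2 ratio of 0.28, and for Polα over Polε, with 8.7% lower. Repeated sequence made up 79.0% of end members, as given above.

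Single members showed larger differences. At chrII:1272601-1272900 on trz2, a tRNA 3′-end processing gene in a fork-meeting zone, totals (lowest, median, highest of 6 libraries) were 0.820, 0.901 and 0.948 for Polε and 1.35, 1.49 and 1.59 for Polδ, a log2 ratio of −0.75 ± 0.070 (edgeR adjusted p = 8.5e-05). The groups did not overlap, and the neighbouring bin differed by −0.73 ± 0.083. At chrIII:978601-978900 on the aspartic protease gene yps1, they were 0.785, 0.876 and 0.942 for Polε and 1.25, 1.29 and 1.34 for Polδ. The opposite direction was seen at chrI:622801-623100 between sro7 and gga21, with 1.30, 1.42 and 1.46 for Polε and 0.746, 0.882 and 0.957 for Polδ (0.67 ± 0.068, edgeR adjusted p = 0.00012). For Polα over Polδ the 5 strongest members were all lower and all lay in the longest stretch without protein-coding genes on chromosome III, between chk1 and ppc1 (III, 1064444 to 1142615). At chrIII:1079401-1079700, totals were 1.01, 1.84 and 2.75 for Polα, 2.11, 2.77 and 3.19 for Polε, and 3.29, 3.55 and 3.72 for Polδ, so that Polα and Polδ libraries did not overlap. Its log2 ratio was −1.05 ± 0.066 for Polα over Polδ and −0.65 ± 0.066 for Polα over Polε. The others were at 1080301, 1088401, 1116301 and 1130701, with log2 ratios between −1.13 and −0.81 for Polα over Polδ. For Polα over Polε, chrII:27601-27900 on SPOM_SPBC1348.10C and chrI:47401-47700 on the phospholipase gene plb4 were also lower, by −0.78 ± 0.095 and −0.72 ± 0.10. These members passed in 18 of 18 leave-one-out fits. Words occurring again in the reference made up 80.1% of the bin at 1079401 and all of the other 4 chromosome III bins, of the bin at 27601 and of that on plb4, but none of those on trz2, yps1 or next to sro7.

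The gene-free stretches of the 3 chromosomes together held 106 members, 19.4% of their 547 counted bins. They were 17 of 24 flat on chromosome I, 21 of 36 flat on chromosome II and 27 of 46 fork-meeting on chromosome III. The median log2 ratio to WT of these members, pooled over polymerases, was −0.12 in 2×Polδ and −0.24 in 4×Polδ, compared with −0.014 and −0.0032 in members elsewhere. Strains and experiments differed. In experiments 1 and 2 their median Polδ totals were 1.22 and 0.845 in 2×Polδ, 1.07 and 1.00 in 4×Polδ, and 1.15 and 0.941 in WT. Polε totals were 0.845 and 0.848, 0.864 and 0.845, and 1.22 and 0.942, and Polα totals 1.17 and 0.954, 0.866 and 0.784, and 1.19 and 1.04. A genotype difference was not tested. A segment of chromosome II (4161301 to 4217700, 56.4 kb, bounds set after the values were seen) held 51 members, among them the bin called higher in 4×Polδ than in WT, chrII:4179901-4180200 on the sorting nexin gene snx41 (0.36 ± 0.061, edgeR adjusted p = 0.0497, 0 of 18 leave-one-out fits). The median total of these 51 members was 1.75 and 1.86 times the median bin in the Polδ libraries of 4×Polδ, and 0.954 to 1.14 in the 16 other libraries. The bounds were drawn where Polδ totals of 4×Polδ were high against those of 2×Polδ and WT. The difference among Polδ libraries was thus fixed by the choice and is a description. Calls against Polδ libraries within the segment share those totals. The bin chrII:4173301-4173600 on med7 and ade8, 1 of the 5 strongest for Polε over Polδ (−0.47 ± 0.053), lies in this segment, as do 8 of the 281 members lower in Polε than in Polδ libraries. Every member that passed the tests of total count between genotypes lay in this segment or in the gene-free stretch of chromosome II.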

How the data were processed

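Ribonucleotides were mapped in 9 strains by Pu-Seq, and the authors deposited whole-number counts per strand in 300 bp bins, as 54 files for 27 samples. Per the submitters' processing notes, reads were mapped with Bowtie2 to build ASM294v2, and the sources used here give no other settings. Repeat runs of experiment 1 differed by little more than sampling noise (a chi-square of 1.12 to 1.14 per degree of freedom in 9 pairs, compared with 18.2 to 49.3 between experiments) and were summed, so that each was counted as 1 library. The members, zone classes and tests were chosen with earlier results of these data known.

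Python 3.11.15 (numpy 2.4.6, pandas 2.3.3, matplotlib 3.10.9) gave the tracks, F, zones and totals. Counts of all bins with at least 10 counts in every library entered quasi-likelihood tests of edgeR 4.0.16 under R 4.3.3 (glmQLFit, glmQLFTest, TMM, strain as the factor over 18 libraries, a term for each library in strand tests), with Benjamini-Hochberg adjustment at 0.05 over all bins. The scripts were tested on simulated data. DESeq2 1.42.0 was an alternative, as were other scalings, filters, limits, flanks and gaps, and each library left out. The labels give both experiments a replicate number. Deviations of same-numbered libraries from their strain means correlated in all 9 pairs of strains with a shared polymerase (r 0.641 to 0.900 for tracks, 0.797 to 0.949 for totals), so counts with experiment as a block are given beside the others.

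The build ASM294v2 was set against RefSeq ASM294v3 by matching strand composition of the bases to the strand bias shared by all libraries, and the best match was at lag 0 in 83 of 83 blocks of 500 bins. Sequence and annotation were then read from ASM294v3. Named regions were the 3 zones of each class with the most members, the 3 steepest origin crossings and fork-meeting zones, the 5 members with the smallest adjusted p in each test and the same sign in both experiments, bins at the limit, and genes altered in the strains. Intervals for single bins are not given, since counts of 1 library cover counting error only.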

Additional observations from a re-analysis of the deposited data

Results flagged for a closer look

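Over 21 groups of 6 libraries of 1 polymerase, each library's value was compared with the rest of its group, and over 36 pairs of polymerases the direction of a genotype difference was compared. Chance alone sets apart about 1 in 20 of the groups of 6 libraries. This rate does not apply to the pairs of polymerases, for which no rate was worked out.

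Among Polδ libraries, the median total of members was 0.962 of the median bin in 2×Polδ experiment 2, which lay apart from the 5 other libraries (0.972 to 0.975). Among Polε libraries, the total at origin crossings was 0.713 in WT experiment 2, apart from the 5 others (0.861 to 0.889). The difference between 4×Polδ and WT in the total of fork-meeting members had opposite signs in both experiments of Polε (mean −0.0079) and of Polα (mean 0.0084) libraries, a difference of −0.0163 that was not tested.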

How the results depend on the processing

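Of 119 alternatives to 20 results, leave-one-out fits aside, 67 stayed within 1.5 times or 1 SD and 52 moved further. The cause of a shift was not tested. The number of members was 3067 at a limit of 0.05 and 12554 at 0.2. The share of members in fork-meeting zones was 52.5% with flanks of 5 bins, 38.1% with 20, 25.4% with no gap joined, 58.4% with gaps of 10 bins, 47.4% at the limit of 0.05, 47.9% when F weighted Polε as much as Polδ and Polα together, 48.7% without Polα, and 48.0% with smoothed tracks. The share of members near zero was 97.0% in 2×Polδ and 98.4% in 4×Polδ at a limit of 0.2, 65.7% and 70.7% with equal weights, and 74.2% in 4×Polδ with smoothed tracks. Against the mean of all bins, member totals were 0.930 for Polα, 0.964 for Polε and 0.905 for Polδ libraries.

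With DESeq2's Wald test, members called for total counts were 5 (2×Polδ over WT), 38 (4×Polδ over WT), 1153 (Polε over Polδ), 592 (Polα over Polδ) and 340 (Polα over Polε), or 0.0803%, 0.61%, 18.5%, 9.5% and 5.46% of members beside 0.165%, 0.351%, 27.3%, 10.1% and 15.5% of all bins. Those for strand shares were 20 (2×Polδ against WT), 25 (4×Polδ against WT) and 16 (4×Polδ against 2×Polδ), or 0.321%, 0.401% and 0.257% beside 0.330%, 0.511% and 0.323%, and windows 78, 32 and 64, or 12.6%, 5.18% and 10.4% beside 12.5%, 3.51% and 6.25%. With the replicate block the numbers in the same order were 14, 67, 2390, 1128 and 1129, then 41, 51 and 20, and windows 121, 43 and 95. From WT libraries alone, Polε over Polδ gave 18 and both Polα contrasts 0. Within single polymerases, 2×Polδ over WT gave 0 in Polδ, 3 in Polε and 0 in Polα libraries, and 4×Polδ over WT gave 24 in Polδ, 3 in Polε and 10 in Polα libraries. Without Polα libraries, 2 members and 2 windows passed for 4×Polδ against 2×Polδ and 2 windows for 2×Polδ against WT. With at least 50 counts on each strand, 2 members passed for 2×Polδ against WT. For the settings named from WT libraries alone onwards, the share of all bins called is not given here. Those counts cannot be set against that share and are no result about members in particular.

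Leaving out 1 experiment gave 5879 to 6730 members, 155 to 185 origin crossings, 307 to 324 fork-meeting zones holding 44.3% to 45.5% of members, and 61.0% to 65.5% (2×Polδ) and 68.7% to 70.8% (4×Polδ) of members near zero. Member totals were then 0.982 to 0.985 for Polα, 1.00 to 1.03 for Polε and 0.970 to 0.973 for Polδ. Leaving out 1 library gave 0 to 3, 3 to 5, 360 to 625, 47 to 178 and 50 to 126 members for total counts, 0 to 18, 1 to 9 and 3 to 8 for strand shares, and 4 to 106, 7 to 25 and 1 to 32 windows, in the order above. The highest strand and window counts were those without WT Polε replicate 1. Such fits assume that the lone library of a strain varies like the others. With 2 experiments per strain, an exact permutation test of 2 against 2 values cannot go below p = 0.333.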
